A study of Mus musculus with 38 samples.

Results

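This account covers the 10 haloperidol brain arrays of a mouse series of 38, ordered by their own level of Nts, the gene that encodes the neuropeptide neurotensin. The 5 arrays with the highest Nts value (high-Nts brains) were set against the 5 with the lowest (low-Nts brains). Both sets were chosen by that measured value, so they are not treatment groups of the study, and every difference between them is given as a description with no test. Nts has 1 probe set on the array and is left out of all counts. The series holds 10 haloperidol and 10 placebo arrays of whole brain and 9 and 9 of liver, from C57BL/6J mice after 30 days with slow-release pellets. Haloperidol is an antipsychotic drug that blocks dopamine D2 receptors. All mice were C57BL/6J and came from 1 colony founded with animals of a commercial supplier; their labels state no age, sex, dose or number of animals per array, so p-values measure the spread between arrays. Each array carries a tag such as 3B that brain and liver arrays share.

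Neurotensin is released by neurons of the hypothalamus, amygdala, striatum and midbrain, and it modulates dopamine signalling through the receptor encoded by Ntsr1. Ntsr2 and sortilin, encoded by Sort1, also bind the peptide. Antipsychotic drugs that block D2 receptors are known to raise Nts in the striatum. In whole brain a change in any one region is diluted by the rest of the tissue.

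The promoter of Nts is shown because the arrays were ordered by this gene, together with those of Timm10 and Atp5e, which were higher in the high-Nts brains, and Kcnd2, which was lower. Sequences are the 250 bases before and 50 after the annotated start, 5′ to 3′ on the gene's strand, from RefSeq on GRCm38.p6. Capitals mark matches on either strand to AP-1 (TGANTCA), the CRE (TGACGTCA), a CRE-like site (TGACATCA), a TATA box (TATAAA) or an ETS site (CCGGAAG); a match is a description of letters. Nts lies at chr10:102490369-102490668 on the minus strand, Timm10 at chr2:84826771-84827070 on the plus strand, Atp5e at chr2:174464052-174464351 on the minus strand and Kcnd2 at chr6:21215096-21215395 on the plus strand.
Nts: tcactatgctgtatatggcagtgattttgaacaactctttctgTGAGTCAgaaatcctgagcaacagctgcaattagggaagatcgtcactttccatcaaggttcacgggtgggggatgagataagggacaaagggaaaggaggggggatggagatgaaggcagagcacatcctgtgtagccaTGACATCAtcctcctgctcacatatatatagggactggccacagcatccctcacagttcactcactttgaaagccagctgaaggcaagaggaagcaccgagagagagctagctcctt
Timm10: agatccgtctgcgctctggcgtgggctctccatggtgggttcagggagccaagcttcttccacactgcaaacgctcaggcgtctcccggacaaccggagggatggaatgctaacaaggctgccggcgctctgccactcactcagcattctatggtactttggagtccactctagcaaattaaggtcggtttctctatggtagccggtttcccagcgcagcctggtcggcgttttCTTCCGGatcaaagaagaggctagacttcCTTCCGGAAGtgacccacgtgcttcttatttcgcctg
Atp5e: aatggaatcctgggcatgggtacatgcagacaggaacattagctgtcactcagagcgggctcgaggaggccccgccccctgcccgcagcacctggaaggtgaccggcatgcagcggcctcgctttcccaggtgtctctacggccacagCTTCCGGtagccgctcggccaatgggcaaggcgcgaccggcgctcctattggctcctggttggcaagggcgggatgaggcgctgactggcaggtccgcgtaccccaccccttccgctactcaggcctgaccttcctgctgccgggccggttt
Kcnd2: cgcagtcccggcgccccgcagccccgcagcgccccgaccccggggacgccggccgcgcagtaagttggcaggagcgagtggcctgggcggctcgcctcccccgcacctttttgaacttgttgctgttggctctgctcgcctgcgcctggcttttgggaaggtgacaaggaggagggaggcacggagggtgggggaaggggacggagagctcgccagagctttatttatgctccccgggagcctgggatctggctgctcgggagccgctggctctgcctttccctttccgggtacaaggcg
The Nts window held an AP-1 match starting at -207 and a CRE-like match at -67, with a GC content of 49.0% and 3 CpG dinucleotides. Timm10 held ETS matches at -16, 14 and 17, the last 2 overlapping on opposite strands, and Atp5e held one at -102; their GC contents were 56.0% and 66.0%. The Kcnd2 window, at 68.7% GC with 26 CpG dinucleotides, held none of these letters. Over all 27025 promoters of the RefSeq table, AP-1 letters were present in 7.93%, CRE-like letters in 3.76%, CRE letters in 1.88%, TATA letters in 14.2% and ETS letters in 9.12%.

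Nts read 8.70 on array 3B, 8.30 on 4N, 8.12 on 3R, 8.07 on 1B and 7.87 on 2L, all as log2 expression. It read 7.40 on 2T, 6.96 on 4T, 6.83 on 2N, 6.69 on 4L and 6.60 on 1R. The border thus runs between 2L at 7.87 and 2T at 7.40. Means were 8.21 ± 0.31 (SD, n = 5) in the high-Nts brains and 6.90 ± 0.31 (SD, n = 5) in the low-Nts brains. The 10 placebo brains ran from 5.93 to 6.78 with a mean of 6.29 ± 0.31 (SD, n = 10). Every high-Nts array lay above every placebo array, while 4L and 1R lay within the placebo range. Across treatment, Nts was 1.26 ± 0.23 (SE) log2 units higher with haloperidol (limma, adjusted p = 0.0037). Both arrays whose tag begins with 3 were high in Nts, and tags beginning with 1, 2 and 4 occurred in both sets; the labels do not say what the digit means.

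**Figure D1:**
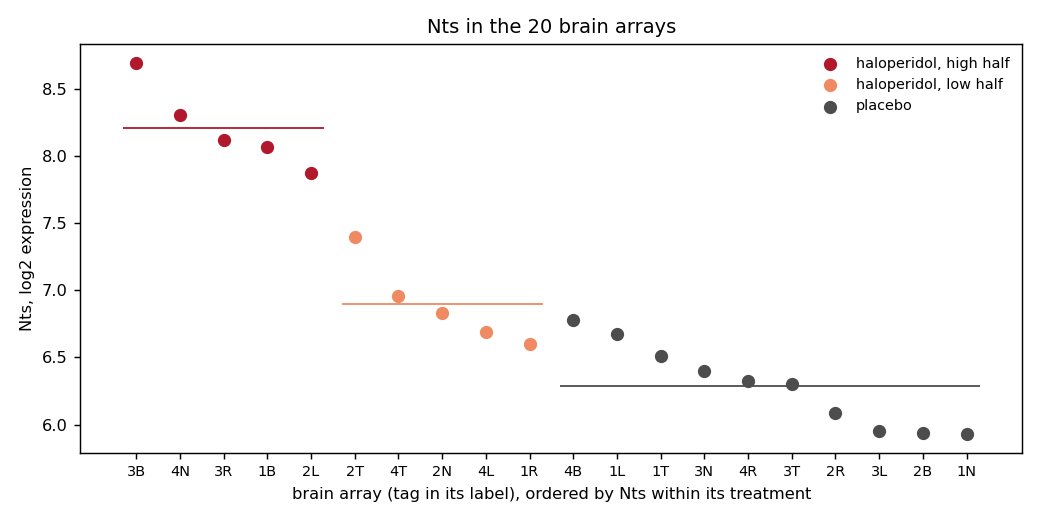
Log2 expression of Nts (y axis) on each of the 20 brain arrays (x axis, by tag, ordered by Nts within treatment); lines are means of the high-Nts set (5 arrays), the low-Nts set (5) and placebo (10). The high-Nts arrays run from 7.87 to 8.70 and the placebo arrays from 5.93 to 6.78, with the low-Nts arrays between 6.60 and 7.40.

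Some arrays held transcripts of other tissues. Gh, growth hormone, read 10.19 on 2N and 10.45 on 1R, both low in Nts, against 7.26 on 3B and 4.96 to 5.34 on the other arrays with haloperidol. Prl, prolactin, read 8.95 and 8.90 on the same 2 arrays and at most 5.63 on the other haloperidol arrays; placebo 1L read 9.03. Alb, albumin of the liver, read 11.11 on the low-Nts array 4T and 3.93 to 4.45 on the others. The mean level of 10 measured pituitary markers ran from 4.66 to 5.18 in the high-Nts, 4.74 to 5.97 in the low-Nts and 4.53 to 6.15 in the placebo brains, and that of 13 hepatocyte markers from 4.50 to 4.64, 4.56 to 7.90 and 4.42 to 4.66. The vesicular glutamate transporter gene Slc17a7, a marker of cortical neurons, had means of 11.40 and 11.74 in the high-Nts and low-Nts brains. It was the 1 separated member of 14 excitatory neuron genes, and overlapped once each array's median was subtracted. Of the 14, 11 had a lower and 3 a higher mean in the high-Nts brains. A lower mean was also found for 57.9% of all genes. The part of pituitary, liver and cortical transcripts in the results was not tested. Values without 1R, 2N and 4T are given for the overall counts and for some of the lists. In whole tissue, fewer cells of a type and less RNA per cell cannot be told apart.

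Of 12546 genes kept for brain, 1072 had all 5 high-Nts arrays above all 5 low-Nts arrays (8.54%), and 719 had them all below (5.73%). The median difference of the higher genes was 0.51 log2 units, from 0.096 to 1.63, and 37 exceeded 1. Those of the lower genes were smaller, with a median of -0.34 and a range of -0.68 to -0.10. With each array's median subtracted the counts were 958 and 448. Without 1R, 2N and 4T, which leaves 5 against 2 arrays and so makes separation easier, they were 1649 and 1380. The higher genes stood close to placebo in the low-Nts brains, with a median difference of 0.098 from the placebo mean, against 0.61 in the high-Nts brains. The lower genes did likewise, at -0.0091 and -0.35. All these genes were picked for the split between the same arrays, so part of the contrast restates that choice.

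The gradation ran through the whole expression profile. The first principal component of the 10 haloperidol brains held 55.2% of their variance and ran from 2.30 to 30.7 in the high-Nts arrays and from -25.1 to -1.67 in the low-Nts arrays. Its correlation with Nts over these 10 arrays was 0.953 (Pearson) and 0.952 (Spearman), given as a description, since Nts ordered the arrays. Placebo brains placed on the same axis ran from -30.9 to -13.2, at the end where the low-Nts arrays lay. The array median showed no such split, with 6.08 to 6.25 in the high-Nts, 6.09 to 6.33 in the low-Nts and 6.27 to 6.40 in the placebo brains. When the component was a covariate, 670 genes were higher and 785 lower, of which 179 and 173 were among the 1072 and 719 above. Of the genes above, 139 of the higher and 115 of the lower changed sign there. The component was computed from these same genes and arrays and follows Nts closely, so these counts cannot tell the 2 apart.

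**Figure D2:**
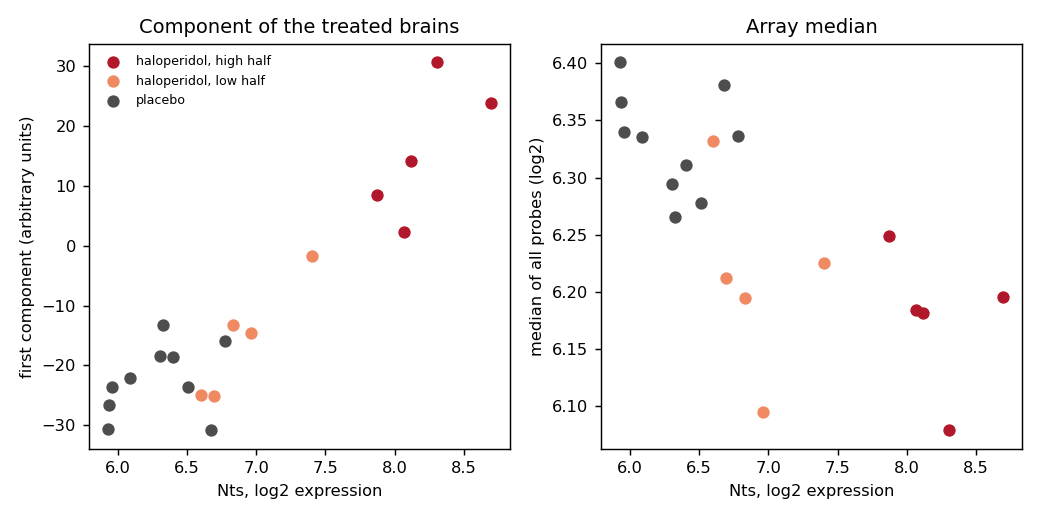
Nts log2 expression (x axis) against the first component of the haloperidol brains in arbitrary units (left) and the median log2 value of all probes (right); each point is 1 of 20 brain arrays. On the left the high-Nts arrays lie at 2.30 or more and the low-Nts arrays at -1.67 or less; on the right the sets overlap.

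The largest upward difference among separated genes was that of Tomm5, a small subunit of the translocase of the outer mitochondrial membrane (chr4:45105209-45108113, GRCm38.p6). It read 9.46, 9.34, 8.85, 8.67 and 9.65 on 3B, 4N, 3R, 1B and 2L, and 8.20, 7.37, 7.77, 7.30 and 7.16 on 2T, 4T, 2N, 4L and 1R. The high-Nts arrays lay 1.63 log2 units higher on average and above all placebo arrays, which ran from 6.77 to 7.86. Among the low-Nts arrays 2T alone exceeded that range. Atp5e, the epsilon subunit of ATP synthase, read 11.22, 11.10, 10.78, 10.91 and 10.88 against 10.39, 9.46, 10.20, 9.20 and 9.46 in the same order, with placebo at 8.71 to 9.75. Here 2T and 2N were intermediate between the high-Nts arrays and placebo. Ndufa7 of complex I differed by 1.20 and the mitochondrial ribosomal protein gene Mrpl14 by 1.24. The others were Zfp931 (1.60) and Zfp455 (1.35), which encode zinc finger proteins, Rps27l (1.24), a ribosomal protein paralogue, Actr6 (1.24), an actin-related chromatin protein, Ciao2a (1.28) of cytosolic iron-sulphur assembly, the amidase gene Nit2 (1.19), Triqk (1.27) and AI413582 (1.30). Zfp931 and Zfp455 belong to families of similar sequences, so cross-hybridisation between members was not tested.

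The genes that followed Nts most closely over the 10 arrays were Pitpnb (r = 0.989), a phosphatidylinositol transfer protein, Echs1 (0.988), a mitochondrial enzyme of fatty acid oxidation, Timm10 (0.987), a chaperone of mitochondrial import, Tmem126a and Lrrc57 (both 0.985). Echs1 read 9.97, 9.81, 9.62, 9.41 and 9.55 in the high-Nts and 9.14, 8.77, 8.68, 8.44 and 8.46 in the low-Nts brains, with placebo at 8.69 or less. Its order of arrays was nearly that of Nts. Inverse to Nts were Kdm4a (r = -0.987), a histone demethylase, Kcnd2 (-0.983), the Kv4.2 potassium channel, Sugp2 (-0.979), Ubr2 (-0.978), a ubiquitin ligase, and Fgfr1 (-0.971), a fibroblast growth factor receptor. Kdm4a read 8.44, 8.53, 8.58, 8.60 and 8.59 against 8.77, 8.92, 8.85, 8.93 and 8.93, so the high-Nts arrays lay below the placebo range of 8.78 to 9.04. Kcnd2 read 10.28, 10.58, 10.65, 10.62 and 10.57 against 10.89, 11.07, 11.06, 11.15 and 11.19, and placebo ran from 10.87 to 11.15. These genes were picked for their correlation, which shares the arrays that ordered them.

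Among genes whose sets did not overlap, the downward differences reached -0.68, smaller in size than the upward ones; among all genes kept the lowest was Gh at -1.72, with overlap. The lowest of the separated genes was Apoa5, an apolipoprotein gene of the liver. It read 5.21 to 5.64 in the high-Nts and 5.89 to 6.46 in the low-Nts brains. Genes with a mean under 5.52 over the brain arrays were left out as dim. The high-Nts means of Apoa5 (5.44) and of Adamts15, named below (5.47), lay under that level. The highest values of Apoa5 were 6.46 on 4T and 6.37 on 2T, where Alb read 11.11 and 4.41. Slc8a2, a sodium/calcium exchanger, differed by -0.66, Kcnk9, a leak potassium channel, by -0.61, and Cbln1, a cerebellar synapse organiser, by -0.60. Kcnk9 read 9.31, 8.76, 9.35, 9.56 and 9.51 against 9.72, 9.85, 9.98, 9.94 and 10.04. All its high-Nts values lay below the placebo range of 9.85 to 10.31. The others were Cep131 (-0.62), Dusp5 (-0.61), a phosphatase of MAP kinases, Scube1 (-0.61), Adamts15 (-0.60), Shisa6 (-0.58), an AMPA receptor auxiliary protein, Tenm3 (-0.58) and Celsr2 (-0.58), both adhesion proteins, and Pcnx3 (-0.57).

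**Figure D3:**
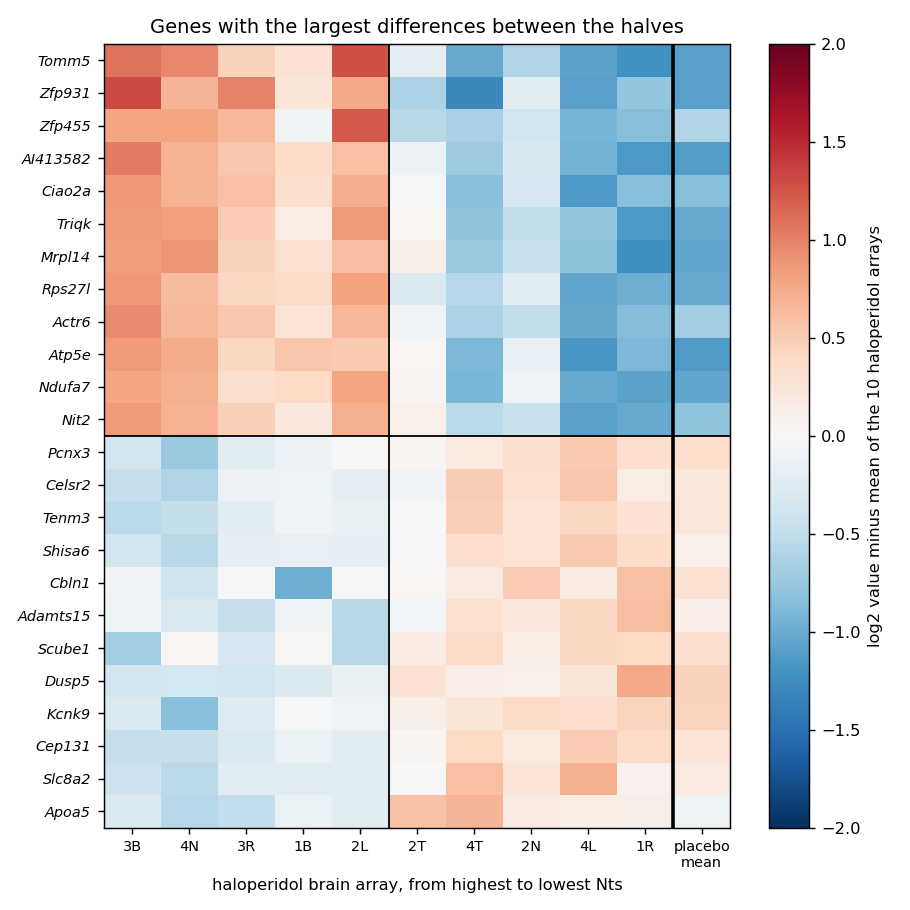
The 12 largest differences in each direction (rows) on the 10 haloperidol brain arrays from highest to lowest Nts (columns), with the placebo mean in the last column; colour is the log2 value minus the mean of the 10 arrays. The columns 1B and 2T are pale for most rows, and the placebo column resembles the low-Nts columns for most rows; Tomm5 spans 1.63 log2 units and Pcnx3 -0.57.

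Neurotensin's receptors were not higher where Nts was high. Ntsr1 was the single member of 4 receptor genes with separate sets, and its high-Nts mean was lower, a difference of -0.48 log2 units. It read 6.63, 6.42, 6.49, 6.55 and 6.29 against 6.70, 7.37, 6.70, 7.07 and 6.95, and 3 high-Nts arrays lay below the placebo range of 6.50 to 7.11. Ntsr2 differed by -0.02 and Sort1 by -0.21, with overlapping sets. Against placebo, haloperidol moved Ntsr1 by -0.07 ± 0.11 (SE; limma, adjusted p = 0.65), which did not pass. None of 12 genes of neurotensin processing and breakdown, such as the convertase gene Pcsk1, had separate sets, with a median of -0.13. Beside these counts, 8.54% of all genes were separated upward and 5.73% downward.

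Among neuropeptides of the hypothalamus, 1 of 15 measured, Vip, was separated upward (8.54% of all genes were). Vip, which encodes vasoactive intestinal peptide of the suprachiasmatic nucleus and cortical interneurons, read 7.53, 8.01, 7.48, 7.36 and 7.55 against 7.30, 7.33, 6.91, 7.16 and 6.77. All 5 high-Nts arrays lay above 9 of the 10 placebo arrays, which read 6.59 to 7.10, and 1 of the 5 above the highest, 4B at 7.56. The median of the 15 genes against placebo was 0.31 in the high-Nts and 0.28 in the low-Nts brains, and the median difference between the sets was 0.15, with 10 of 15 means higher in the high-Nts brains. By treatment, 7 of the 15 were higher with haloperidol (limma, adjusted p under 0.05), against 15.2% of all genes in each direction. After subtraction of the array median, no neuropeptide of this list had separate sets, Vip included.

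Of 23 genes of striatal projection neurons, 19 had a lower mean in the high-Nts brains, as had 57.9% of all genes, and the median was -0.17 (-0.13 after subtraction of the array median). Of these 23, 1 was separated upward and 1 downward, shares no larger than the 8.54% and 5.73% of all genes. Tac1, which encodes substance P of direct-pathway neurons, read 9.36, 9.51, 9.42, 9.19 and 9.19 against 9.00, 9.10, 8.78, 8.89 and 8.31. All high-Nts arrays lay above the low-Nts arrays, and above 9 of the 10 placebo arrays, which read 8.28 to 8.90; placebo 1L, at 9.62, lay above them all. Both Tac1 and the lower gene, Gpr52 (-0.14), overlapped after subtraction of the array median. Drd2, the receptor that haloperidol blocks, differed by -0.39 and Penk, the enkephalin precursor of indirect-pathway neurons, by -0.14, both with overlapping sets. Of 13 genes of dopamine neurons and dopamine handling, 7 had a higher mean in the high-Nts brains and 6 a lower one. Pts (0.89), Qdpr (0.54) and Aldh1a1 (0.68) were separated upward and 0 downward. Pts and Qdpr encode enzymes that make and recycle tetrahydrobiopterin, a cofactor of tyrosine hydroxylase, and Aldh1a1 an aldehyde dehydrogenase. Th itself, tyrosine hydroxylase, differed by -0.19 and the dopamine transporter gene Slc6a3 by 0.18, both with overlap. Slc6a3 was 0.50 ± 0.13 (SE) higher with haloperidol than with placebo (limma, adjusted p = 0.0085).

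Immediate early genes and genes of the cAMP pathway mostly had lower means in the high-Nts brains, 19 of 23 and 16 of 20. Of all genes, 57.9% had. The part of these genes in the Nts values was not tested. None of 23 immediate early genes had separate sets and their median was -0.25; Fos differed by -0.32 with overlap. Of 20 genes of the cAMP pathway, Crem (0.40) and Creb1 (0.18), which encode CRE-binding factors, were higher. The co-activator gene Crtc3 (-0.40) and the kinase regulator Prkar1b (-0.20) were lower. These are 10.0% each way, beside 8.54% higher and 5.73% lower of all genes. Against placebo, 5 of the 20 cAMP genes were lower with haloperidol (limma, adjusted p under 0.05), against 15.2% of all genes. After subtraction of the array median 0 were lower and 2 higher, when 467 of all 12547 genes were lower and 4088 higher.

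Genes for protein synthesis and respiration held the highest shares of separated members among the 35 lists. Of all genes, 8.54% were separated upward and 5.73% downward. The list of cytosolic ribosomal proteins had 43 of 79 members higher and 1 lower, with a median difference of 0.38, against -0.05 for all genes. Its symbol pattern also took 6 Rps6k kinase genes; without them 43 of 73 were higher and 0 lower. Complex I had 14 of 34 higher and 0 lower (median 0.39), led by Ndufa7 and Ndufb8 (1.11). The other respiratory chain subunits had 23 of 43 higher and 0 lower (median 0.41). Proteasome subunits had 9 of 36 higher and 0 lower (median 0.32), led by Psma7 (1.03), Psma6 (0.88) and Psmd14 (0.85), and histone genes 8 of 23 and 0 (median 0.33), led by H2bc3 (0.87). Sequences of ribosomal protein and histone genes resemble copies elsewhere in the genome, so their probes can share signal. By treatment, 66 of the 79 ribosomal genes, 27 of the 34 complex I genes, 37 of the 43 other respiratory genes, 27 of the 36 proteasome genes and 13 of the 23 histone genes were higher with haloperidol (limma, adjusted p under 0.05), against 15.2% of all genes.

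The mean level of the ribosomal protein list was 10.60 to 10.78 in the high-Nts arrays, 10.12 to 10.49 in the low-Nts arrays and 10.02 to 10.32 in placebo. Complex I behaved alike, at 10.19 to 10.47, 9.69 to 10.08 and 9.50 to 9.88. In both cases the high-Nts arrays were separate from the rest and the low-Nts arrays overlapped placebo. Relative to placebo, the median of ribosomal protein genes was 0.56 in the high-Nts and 0.15 in the low-Nts brains, and that of complex I 0.58 and 0.19. Without 1R, 2N and 4T, the medians between the sets were 0.32 for ribosomal proteins, 0.39 for complex I, 0.34 for the other respiratory subunits, 0.29 for the proteasome and 0.22 for histones. After subtraction of the array median they were 0.41, 0.43, 0.44, 0.36 and 0.36. Chaperones varied. Of 15 heat shock and unfolded protein response genes, 2 were higher and 1 lower, beside 8.54% and 5.73% of all genes. Hspe1, the mitochondrial co-chaperonin, was higher by 0.99 and Dnajb9 by 0.41. Hspd1, the chaperonin partner of Hspe1, differed by -0.22 (overlapping after subtraction of the array median).

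**Figure D4:**
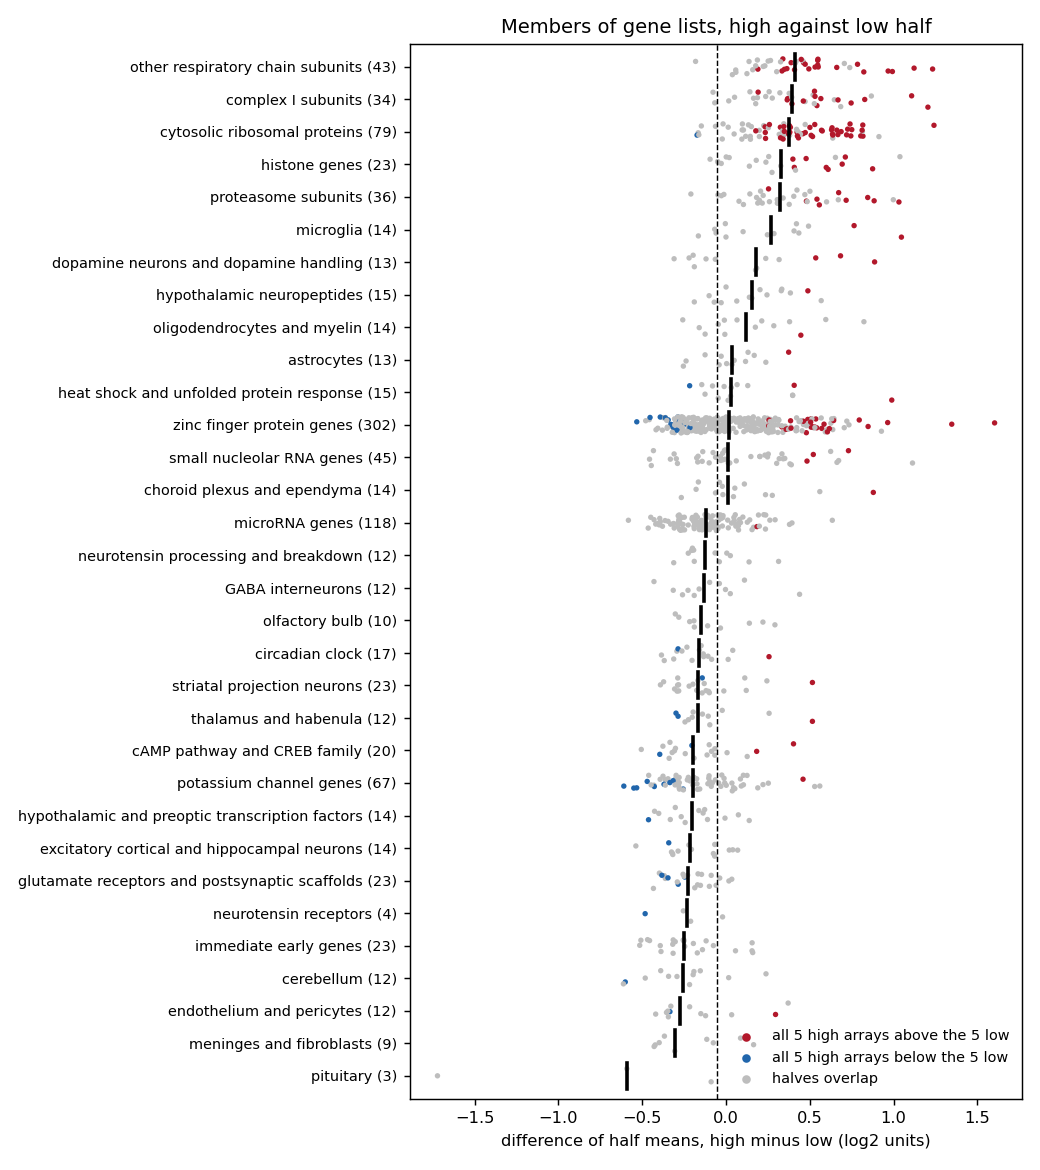
Difference of the means of the high-Nts and low-Nts brains (x axis, log2 units) for every kept member of 32 gene lists (rows, with the number of members); red and blue points are genes whose 5 and 5 arrays do not overlap, black bars are list medians and the dashed line is the median of all genes, -0.05. Respiratory, ribosomal, histone and proteasome genes lie to the right (medians 0.32 to 0.41). At the left lie pituitary, meningeal, endothelial, cerebellar and immediate early genes (-0.59 to -0.25), glutamate receptors (-0.23) and potassium channels (-0.20), among others. Without 1R, 2N and 4T, which are in the figure, the pituitary median (3 genes) was 0.05 and the meningeal median -0.54.

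Potassium channel genes had 9 of 67 members lower, against 5.73% of all genes, and 1 higher (median -0.20). Besides Kcnk9 and Kcnd2, these included Kcnj9 (-0.55), a G-protein-gated channel, and Kcnh2 (-0.47). Of 23 genes of glutamate receptors and postsynaptic scaffolds, 4 were lower, beside the same 5.73%, and 0 higher (median -0.23): the AMPA receptor subunits Gria1 (-0.25) and Gria3 (-0.29), the metabotropic receptor Grm5 (-0.35) and the scaffold Dlgap1 (-0.38). Grm5 read 10.35, 10.38, 10.57, 10.54 and 10.55 against 10.66, 10.90, 10.76, 10.93 and 10.87, with placebo at 10.77 to 11.21. The high-Nts arrays were below placebo, and 2 low-Nts arrays were too. By treatment, 14 of the 23 glutamate genes and 16 of the 67 channel genes were lower with haloperidol (limma, adjusted p under 0.05), against 15.2% of all genes. After subtraction of the array median 1 and 4 were lower, when 467 of all 12547 genes were. Lists of other cells and regions had medians as low: meninges -0.31, endothelium -0.27, cerebellum -0.26, immediate early genes -0.25, excitatory neurons -0.21 and hypothalamic transcription factors -0.20. Without 1R, 2N and 4T these medians were -0.54, -0.20, -0.26, -0.22, -0.22 and -0.20 in the same order.

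Microglial genes were partly separated. Tyrobp, an adaptor of microglial receptors, read 8.93, 9.14, 8.94, 8.71 and 8.77 against 8.31, 7.97, 7.89, 7.55 and 7.54, with placebo at 7.33 to 7.86. Its partner Trem2 was higher by 0.76. These were 2 of 14 microglial genes (median 0.27). The others overlapped: Ly86 (0.49), C1qb (0.43), Fcer1g (0.42), Aif1 (0.41), P2ry12 (0.29), C1qa (0.25) and Ctss (0.10) had higher means, and Itgam (-0.004), C1qc (-0.0004), Tmem119 (-0.06), Cx3cr1 (-0.07) and Csf1r (-0.17) lower ones. By treatment, 8 of the 14 were higher with haloperidol (limma, adjusted p under 0.05), against 15.2% of all genes. Lyz2, the lysozyme gene of macrophages and the 1 leukocyte marker bright enough to be kept, differed by 1.22 between the sets with overlap, at 8.07 to 8.99 in the high-Nts and 6.82 to 8.30 in the low-Nts brains. It was 1.06 higher with haloperidol (limma, adjusted p = 0.0053). The mean level of all 9 measured leukocyte markers was 4.71 to 4.84, 4.57 to 4.87 and, in placebo, 4.45 to 4.67; their part in the results was not tested. Among other brain cells, 1 of 14 oligodendrocyte genes (Mal, 0.45), 1 of 13 astrocyte genes (S100b, 0.37) and 1 of 14 choroid plexus genes (Calml4, 0.88) were higher and 0 lower, near the 8.54% of all genes. The mean level of the oligodendrocyte list separated the sets, at 9.43 to 9.48 against 9.12 to 9.39, with placebo at 8.96 to 9.47. Of its 14 members 8 had a higher mean and 6 a lower one, with differences from -0.26 to 0.82. Endothelial genes had Abcg2 (0.30) higher and Flt1 (-0.33) lower of 12. The lower members elsewhere were Slc17a7 (-0.34) of 14 excitatory neuron genes, Dlx2 (-0.46) of 14 hypothalamic transcription factors, Cbln1 of 12 cerebellar genes, and Rora (-0.29) and Lef1 (-0.30) of 12 thalamic and habenular genes, beside Tac1 on the higher side. Slc17a7, Dlx2, Abcg2 and Flt1 had overlapping sets after subtraction of the array median. Of all genes, 5.73% were separated downward. The lists for GABA interneurons (12), the olfactory bulb (10), meninges (9), pituitary (3), hepatocytes (2) and erythroid cells (1) had 0 members separated; the circadian list had Nr1d2 (0.26) higher and Rora lower of 17.

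MicroRNA genes differed between treatments but hardly between the sets. Of 118 measured, 78 were lower and 2 higher with haloperidol than with placebo (limma, adjusted p under 0.05), against 15.2% of all genes each way. After subtraction of the array median the counts were 62 and 4, and those of all 12547 genes 467 and 4088. Between high-Nts and low-Nts brains 1 was higher, Mir692-1 by 0.18, and 0 were lower, beside 8.54% and 5.73% of all genes. The median of the 118 was -0.12. Their median against placebo was -0.52 in the high-Nts and -0.38 in the low-Nts brains, so most of that distance was present in both. Without 1R, 2N and 4T, 4 of the 118 were higher and 16 lower (median -0.16), while 1649 and 1380 of all 12546 genes were. Of 45 small nucleolar RNA genes 3 were higher (6.67%), led by Snord42b (0.73), and 0 lower, with a median of 0.01. Of 302 zinc finger protein genes 27 were higher (8.94%) and 14 lower (4.64%), with a median of 0.02. The zinc finger shares lie near those of all genes, 8.54% and 5.73%.

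Over all genes, haloperidol against placebo gave 1911 higher (15.2%) and 1905 lower (15.2%) of 12547 (limma, adjusted p under 0.05). With each array's median subtracted, which moved the median of all genes from -0.02 to 0.12, the split was 4088 and 467. This comparison shares the haloperidol arrays with the sets, so values stand side by side only. Tomm5 was 1.09 ± 0.28 (SE) higher with haloperidol (limma, adjusted p = 0.0088), Atp5e 1.14 ± 0.24 (adjusted p = 0.0044), Echs1 0.80 ± 0.17 (adjusted p = 0.0044) and Tyrobp 0.75 ± 0.18 (adjusted p = 0.0062). These genes had standard deviations of 0.95, 0.75, 0.57 and 0.60 over the 10 haloperidol arrays and 0.35, 0.41, 0.20 and 0.20 over placebo. They were named for differences or correlations over the haloperidol arrays, so a wide spread there is partly set by that choice. Kdm4a (-0.18 ± 0.07, adjusted p = 0.053), Kcnd2 (-0.23 ± 0.10, adjusted p = 0.069) and Tac1 (0.31 ± 0.14, adjusted p = 0.10), which separated the sets, did not pass by treatment.

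The placebo brains, which had no part in choosing the sets, showed whether genes also followed Nts without the drug. The slope of each gene on Nts over the 10 placebo arrays, whose Nts spans only 5.93 to 6.78, passed for 0 of 12546 genes (0%; limma, adjusted p under 0.05), and 847 had an unadjusted p under 0.05. The smallest adjusted p was that of Snord82, a small nucleolar RNA gene, at 0.099 with a slope of 0.81 ± 0.11 (SE) log2 units per unit of Nts. Vip had a slope of 0.73 ± 0.17 (limma, unadjusted p = 0.00081, adjusted p = 0.59). Tomm5 had 0.27 ± 0.32, Echs1 0.09 ± 0.20, Kdm4a 0.06 ± 0.12 and Kcnd2 0.004 ± 0.12, none beyond its error. Atp5e had 0.60 ± 0.35 and Mrpl14 0.44 ± 0.18 (limma, unadjusted p = 0.030, adjusted p = 0.72).

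Of the 1072 higher genes, 802 (74.8%) had a positive slope in placebo, against 55.9% of all genes. Of the 719 lower genes, 405 (56.3%) had a negative one, against 44.1%. Without placebo array 1L, which also held pituitary transcripts (Gh at 11.49), 88.8% of the higher genes had a positive slope, against 58.4% of all. With the array median as covariate the share of higher genes was 62.1%, against 55.2%, and 55.1% of the lower genes then had a positive slope. Genes are not independent of each other, and these shares carry no test. Across genes, slopes in haloperidol and placebo brains correlated at r = 0.268, or 0.505 without 1L; all points share the same arrays.

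The component of the haloperidol brains had no correlation with Nts in placebo that passed (r = 0.32, permutation p = 0.36; rho = 0.30, permutation p = 0.41; 10 arrays, two-sided), and r was -0.08 without the 2 arrays farthest from the median Nts. Of 8 array measures tested this way, none passed after Benjamini-Hochberg adjustment. The level of histone genes came nearest, with r = 0.64 (permutation p = 0.047, adjusted 0.37) and rho = 0.78 (permutation p = 0.010, adjusted 0.083), or r = 0.35 without the 2 farthest arrays. The ribosomal protein level gave r = 0.33 (permutation p = 0.35) and rho = 0.13 (permutation p = 0.73), and 0.001 for r without those 2 arrays.

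Liver arrays with the same tags gave a second readout. Labels do not say that a shared tag marks 1 mouse, and 4T has no liver array here, so 5 livers with high-Nts tags were compared with 4 with low-Nts tags. No gene of 12547 passed (0%; limma, adjusted p under 0.05), and 189 had an unadjusted p under 0.05. The smallest p were those of Pdpn (-0.76 ± 0.18, SE), Hyal3 (0.64 ± 0.16), Ifi209 (0.51 ± 0.13), Cx3cr1 (0.57 ± 0.16) and Smim10l2a (-0.58). Of the 1072 genes higher in the high-Nts brains, 1008 were kept in liver; 36.1% of them had a higher mean with the high-Nts tags, against 48.1% of all genes, and their median difference was -0.04. The array medians of the 2 sets of livers overlapped, at 4.82 to 5.05 and 4.79 to 4.95.

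Genes higher with Nts were shorter in the genome than those lower with it. Median gene span, from the annotated start to the end of the gene on GRCm38.p6, was 14.5 kb for the 1072 higher genes, 50.2 kb for the 719 lower genes and 25.2 kb for all genes kept. With genes divided by span into 5 equal classes, in the shortest, up to 7.90 kb, 13.6% were higher and 1.68% lower; in the longest, 80.8 kb or more, 3.91% were higher and 10.5% lower. The classes between followed in order, with 10.7%, 9.06% and 5.51% higher and 3.83%, 5.39% and 7.30% lower. The median difference between the sets ran from 0.03 in the shortest to -0.13 in the longest class. In placebo brains the median slope on Nts ran from 0.07 to -0.002. Whether span has a part in the differences was not tested. Tomm5 spans 2905 bases and Atp5e 3027, while Kcnd2, among the genes most inverse to Nts, spans 514460.

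**Figure D5:**
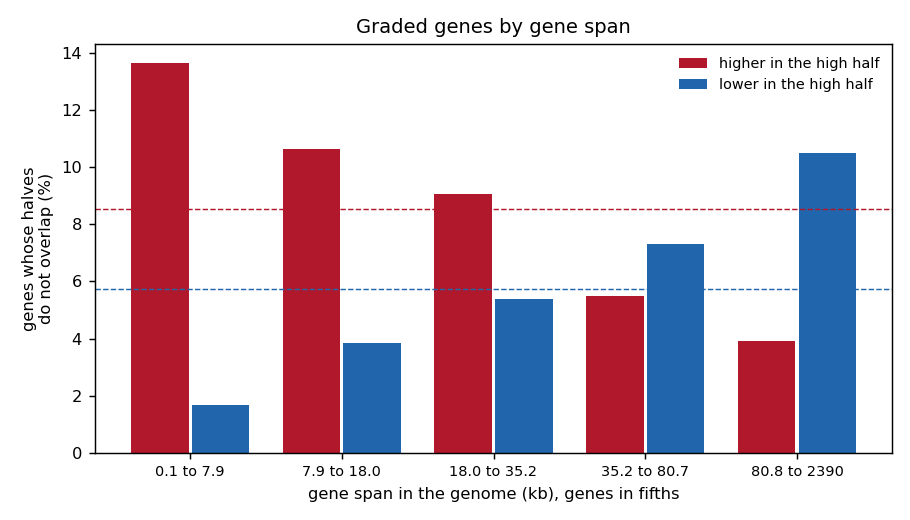
Percentage of genes (y axis) whose 5 high-Nts arrays all lay above (red) or all below (blue) the 5 low-Nts arrays, in 5 classes of gene span in kb (x axis; about 2506 genes each); dashed lines are the percentages of all genes, 8.54 and 5.73. The red bars go down from 13.6 to 3.91 and the blue bars go up from 1.68 to 10.5.

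Promoter letters were counted for the genes with a RefSeq promoter, 902 of the 1072 higher, 575 of the 719 lower and 9989 of the 12546 kept. The last 2 coverages are too low for a check of promoter composition between the sets, which is therefore void, and the shares describe the listed promoters. ETS letters were in 27.9% of the higher genes' promoters, 11.7% of the lower genes' and 16.7% of those kept. The AP-1 letters of the Nts window were in 3.55%, 5.22% and 4.37%, and its CRE-like letters in 1.44%, 2.09% and 1.70%. CRE letters were in 3.88%, 4.35% and 3.27%, and TATA letters in 7.43%, 6.09% and 6.96%. Timm10 and Atp5e, printed above, are 2 of the genes with ETS letters; Actr6, with matches at -62 and -18, and Tmem126a, with one at -35, are others.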

How the data were processed

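RNA from whole brain and liver was measured on microarrays. The authors deposited 1 table of log2 values, to which the submitters' processing notes attach RMA and the Affymetrix Expression Console; no versions are given. Of 35556 probes, 21218 had 1 gene symbol in the platform annotation, 1881 had several and 12457 none; 21185 matched RefSeq by Entrez ID. The highest-mean probe stood for each of 18820 genes, and the 33.3% dimmest were left out in each tissue (below 5.52 in brain, 3.92 in liver), which kept 12547.

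Haloperidol brains were ordered by Nts and the 5 highest set against the 5 lowest, with no test. Haloperidol against placebo, the slope on Nts in placebo brains, and livers by tag were tested by lmFit and eBayes (limma 3.58.1, R 4.3.3; Benjamini-Hochberg, threshold 0.05), checked on simulated data; correlations in placebo used 100000 permutations. Genes named were the 12 largest differences each way among separated genes, the 5 highest and 5 lowest correlations, up to 4 separated members of each list, a fixed set of neurotensin and dopamine genes, 5 genes of smallest p in placebo and in liver, and single-array markers. Alternatives changed the filter, scaling, probe choice, covariates and arrays. Members and lists were chosen with earlier results of these data known. Pcsk1, Lyz2 and the overlapping microglial genes were named after their values were seen. The number of arrays limits the precision.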

Additional observations from a re-analysis of the deposited data

Results flagged for a closer look

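Single arrays stood far from the rest of their group, by the gap to the nearest array over the group's range (Dixon's criterion), in 21 of 227 gene and group pairs tested; chance gives about 1 in 20. Values are log2 expression.

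Most of these came from placebo brain 1L. It was higher than the other 9 placebo arrays for Dlx2 at 8.24 (others 6.65 to 7.35), Gh at 11.49 (others 4.69 to 8.28), Penk at 12.12 (others 11.29 to 11.70), Prl at 9.03 (others 3.78 to 4.99), Tac1 at 9.62 (others 8.28 to 8.90), Tenm3 at 10.42 (others 9.61 to 10.02) and Th at 9.45 (others 8.03 to 8.56). It was lower for Aldh1a1 at 8.31 (others 9.23 to 9.98), Calml4 at 5.10 (others 6.04 to 6.57), Cbln1 at 8.76 (others 10.20 to 10.46), Flt1 at 8.38 (others 9.02 to 9.28), Lef1 at 6.63 (others 7.10 to 7.59), Rora at 9.75 (others 10.04 to 10.30), S100b at 8.74 (others 9.37 to 9.92), Slc6a3 at 6.79 (others 7.65 to 8.03) and Ttr at 10.99 (others 12.16 to 12.36). These include genes of the pituitary, the striatum and midbrain, the choroid plexus and the cerebellum. The array does not enter the description of the haloperidol brains, and the placebo slopes are given with and without it.

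Among the haloperidol brains, 4T stood apart for Alb at 11.11 (others 3.93 to 4.45). In placebo, 4B was higher for Vip at 7.56 (others 6.59 to 7.10) and Zfp455 at 6.94 (others 5.27 to 5.88); this array also had the highest Nts of the placebo group, 6.78. Array 4R was higher for Mal at 10.54 (others 9.79 to 10.17), and 1N lower for Sort1 at 10.71 (others 10.91 to 11.08).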

How the results depend on the processing

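Against 1072 genes higher and 719 lower in the high-Nts brains, array median subtraction left 448 lower. The 3 highest against the 3 lowest arrays gave 3302 and 3584, and leaving out 1R, 2N and 4T 1649 and 1380; fewer arrays separate more easily by construction. Leaving out single arrays gave 1080 to 1643 higher and 739 to 1658 lower; those over 1.5 times the count were 1B (1643 and 1335), 2L (1082 lower) and 2T (1658 lower). The first component as covariate, which was computed from these same genes and arrays, gave 670 higher. The tag digit as block gave 1899 and 1897. The cause was not tested. Under the first component 7 named genes changed sign: Dlgap1 to 0.0883, Flt1 to 0.0903, Lef1 to 0.0868, Pcnx3 to 0.0616, Dnajb9 to -0.0154, H2bc3 to -0.0863 and Vip to -0.0196. Over all alternatives, named genes gave 2184 values within the spread, 101 beyond it and these 7.

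Haloperidol against placebo gave 4088 higher and 467 lower with the array median subtracted, 3126 lower without haloperidol 1R, 2N and 4T and placebo 1L, and 1184 higher when placebo 1L and haloperidol 4T and 4N were left out. For named genes 737 alternative values kept their call, 66 gained and 26 lost it. In placebo, leaving out the lowest 50% of genes gave 1 call, Snord82 (limma, adjusted p = 0.042), as fewer genes were tested; adjusted p of the top gene was 0.042 to 0.29 over alternatives. In liver the tag digit as block gave 1 lower, Rgs16 (limma, adjusted p = 0.037). No paired analysis was possible because the groups compared lie within 1 tissue and share no tag.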
